A study of Homo sapiens with 3 samples.

Results

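The genes described are the edited scaffold gene KANK1, its paralog KANK2 and 8 genes of the cortical microtubule stabilising complex that KANK proteins join: PPFIBP1, PPFIA1, KIF21A, ERC1, PHLDB1, PHLDB2, CLASP1 and CLASP2. They were chosen by symbol, and all 10 were found among 26209 gene symbols. Messenger RNA was sequenced in 3 libraries of HEK293 cells, an adherent line derived from human embryonic kidney and grown in DMEM with fetal bovine serum. The control library comes from cells of control genotype whose treatment is labelled as none. The other 2 libraries come from clones 114 and 174, labelled partial KANK1-KO and treated by genome editing. For editing, the pGuide-it-ZsGreen1 plasmid, which supplies Cas9 and a guide RNA, was delivered with a lipid reagent. Each edited library is 1 clone and the control is 1 library; which alleles the clones carry was not analysed here. The title of the series asks about centrosome aberrations when part of the KANK1 dose is missing.

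KANK proteins bind talin in integrin adhesions through a conserved N-terminal motif and bind the kinesin KIF21A through C-terminal ankyrin repeats. Around the adhesion they meet a membrane-bound assembly of liprins, ELKS and LL5 proteins, which in turn anchors CLASPs on the plus ends of microtubules. The assembly captures microtubules at the cell cortex, limits their growth there and directs exocytosis next to adhesions. KANK1 binds this assembly through the liprin encoded by PPFIBP1.

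The presumed target of the guide is shown first, since it sets which KANK1 transcripts could carry an edit made there. The design text puts the guide close behind the first start codon, and gives it with a second oligo described as its complement. The 2 are not each other's complement. Neither was found unchanged in any of 206694 GENCODE release 29 transcripts. Each differs by 1 inserted or deleted base from the same stretch of KANK1, which ends in AGG, a protospacer-adjacent motif (PAM) for Cas9. In the lines below, the second oligo is written as its reverse complement, and capitals mark the PAM of the genomic stretch.

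Guide as given: tgacaccggtgagttcagaagg

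Second oligo, reverse complement: tgacacccgggtgagttcagaagg

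KANK1 stretch: tgacaccgggtgagttcagaAGG

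The KANK1 stretch has 20 bases before its 3-base PAM and lies at chr9:711287-711309 on the plus strand of GRCh38, inside a coding exon. The run of G after the first CC is 3 bases long in the stretch and 2 in the given guide. The run of C before it is 2 bases long in the stretch and 3 in the second oligo. The exact stretch occurs in transcripts of 1 gene, KANK1. Of 10 annotated KANK1 transcripts, 6 contain it, among them 4 of 6 protein-coding ones. The closest match in any transcript of KANK2, KANK3, KANK4 or the 8 partner genes needs at least 6 base changes.

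Where the stretch falls relative to a start codon depends on the transcript. In KANK1-204, which begins in a later exon, it starts 46 bases after the A of the start codon. In KANK1-205, KANK1-206 and KANK1-210, whose start codon lies 474 coding bases (158 codons) further upstream, it starts 520 bases after that A. The stretch from the KANK1-204 start codon to the PAM is given with both in capitals.

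KANK1-204 coding start: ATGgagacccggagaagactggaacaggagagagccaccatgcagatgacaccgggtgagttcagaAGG

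All 10 genes were measured in every library, from 3.43 to 27.5 FPKM (fragments per kilobase of transcript, scaled to the mapped fragments of the library, as deposited by the authors). FPKM are scaled for transcript length, so levels of different genes in 1 library can be set side by side. PPFIA1 had the highest level of the 10 in each library and lay above 62.6% of the 12577 genes tested in the control. CLASP2 was next there, above 48.9%, so all members but PPFIA1 were below the median tested gene in the control. KANK1 was the second lowest in the control, above 24.7% of tested genes, and the lowest in both clones. Of the 9 neighbouring steps in the control's order, 3 were wider than the spread (SD on the log2 scale) between the clones: PPFIA1 over CLASP2, CLASP2 over CLASP1 and PPFIBP1 over PHLDB1. The remaining neighbours, KANK2 and ERC1 among them, did not differ beyond that spread. Of the 3 wider steps, only PPFIA1 over CLASP2 kept its order in both clones. CLASP2 fell below CLASP1 in clone 174, and PPFIBP1 below PHLDB1 in clone 114. Of all 9 steps, 4 had the same order in every library.

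**Figure D1:**
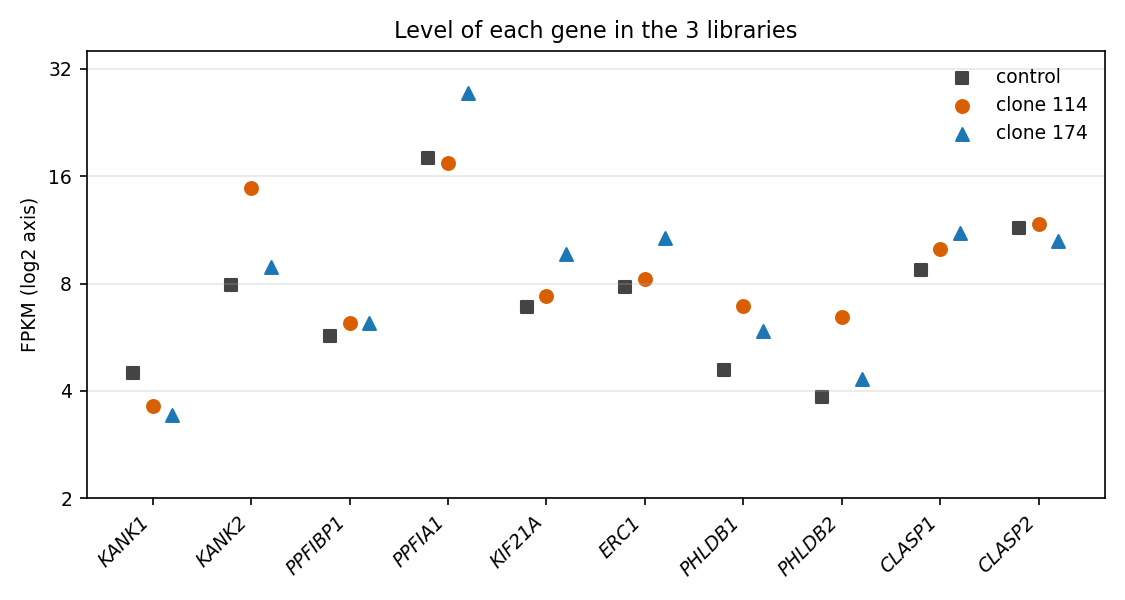
FPKM on a log2 axis for the 10 genes in the control (squares), clone 114 (circles) and clone 174 (triangles), 1 point per library. KANK1 is the 1 gene with both clones below the control, while KANK2 stands high in clone 114 at 14.8 FPKM and PPFIA1 in clone 174 at 27.5 FPKM.

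KANK1 itself stood at 4.49 FPKM in unedited cells, against 3.63 in clone 114 and 3.43 in clone 174. Both clones were below the control and close to each other, with a clone mean of 3.53 ± 0.136 FPKM (SD, n = 2). The clones thus carried 0.807 and 0.765 of the control's KANK1 level. The fitted difference on the log2(FPKM + 1) scale was -0.28 (SE 0.40), and it did not pass limma's test over all genes (adjusted p = 1.00). Scaled to equal FPKM sums, the libraries gave -0.16. At the estimated depth the KANK1 values rest on 101 to 403 fragments, depending on the library and the transcript assumed. Without the added 1 FPKM, the log2 ratio of FPKM to the control was -0.31 in clone 114 and -0.39 in clone 174. The counting SE of such a ratio was at most 0.20. In a bulk sample, fewer cells with the transcript and less of it per cell cannot be told apart.

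KANK2, the paralog that also links talin to the cortical assembly, lay at 7.94 FPKM in unedited cells, at 14.8 in clone 114 and at 8.92 in clone 174. Clone 114 was high, and clone 174 was near the control. The FPKM ratio to the control was 1.87 in clone 114 and 1.12 in clone 174. On the log2(FPKM + 1) scale the change of 0.83 in clone 114 was matched or exceeded upwards by 2.97% of tested genes. The fitted difference of both clones was 0.49 (SE 0.39; limma adjusted p = 1.00). From clone 114 to clone 174 the KANK2 value differed by -0.68.

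In both clones KANK1 was lower and KANK2 higher than in the control. On the log2(FPKM + 1) scale, 24.7% of tested genes were as far down as KANK1 in clone 114 and 23.1% in clone 174. For KANK2, 2.97% were as far up in clone 114 and 30.7% in clone 174. KANK2 was 1.77 times KANK1 in unedited cells, 4.09 times in clone 114 and 2.60 times in clone 174. Both clones were above the control, and the log2 ratio was larger by 0.88 ± 0.46 (SD, n = 2) in the clones, with 1.21 in clone 114 and 0.56 in clone 174. A ratio within a library does not move with the scaling of the library. With 1 library against 2, an exact two-sided permutation test cannot give a p below 0.333, so no test of the ratio was made.

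The minor paralogs KANK3 and KANK4 were below the level tested. KANK3 was listed at 0.474 FPKM in unedited cells, 0.967 in clone 114 and 0.954 in clone 174, on 19 to 20 fragments in the control and 40 to 42 in each clone. Its log2 ratio was 1.03 in clone 114 and 1.01 in clone 174, each with a counting SE of at most 0.40. KANK4 was listed at 0 in unedited cells, at 0.0679 FPKM in clone 114 and 0.212 in clone 174. KANK1 made up 34.8% of the summed KANK family FPKM in unedited cells, 18.6% in clone 114 and 25.4% in clone 174. The family sum itself was 12.9 FPKM in unedited cells, 19.5 in clone 114 and 13.5 in clone 174. Clone 114 thus had both the smallest KANK1 share and the highest sum, with KANK2 at 14.8 FPKM. Its KANK1 level of 3.63 FPKM was not below the 3.43 of clone 174.

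**Figure D2:**
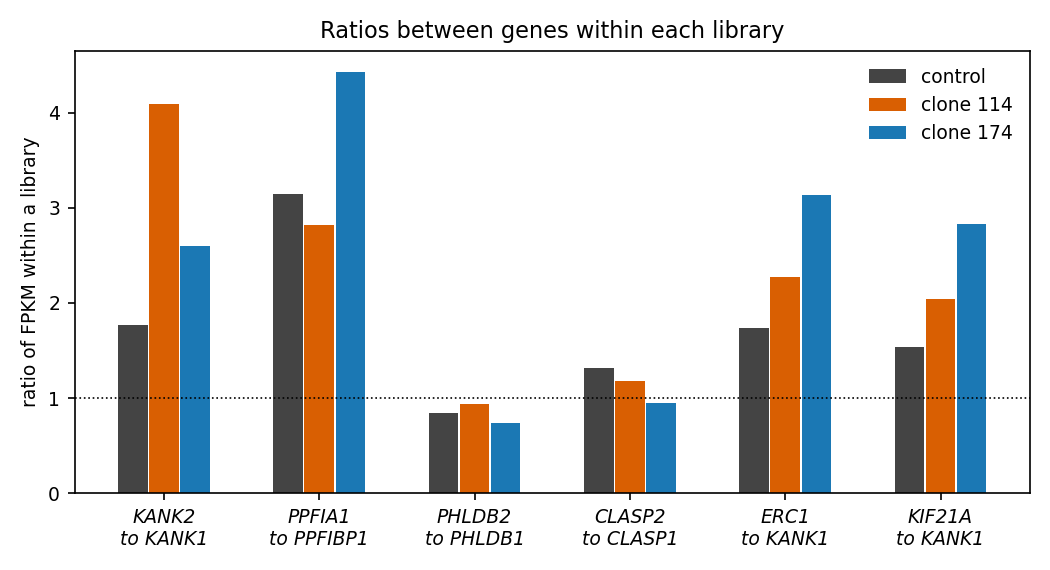
Ratio of FPKM between 2 genes within each library, for 4 pairs of related genes and for ERC1 and KIF21A over KANK1; bars start at 0 and the dotted line marks equal levels. The KANK2 to KANK1 ratio is 1.77 without editing against 4.09 and 2.60 in the clones, while PHLDB2 to PHLDB1 stays between 0.737 and 0.936.

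The liprins PPFIBP1 and PPFIA1 behaved differently from each other. PPFIBP1, whose product (liprin-beta-1) is the direct KANK1 contact, lay at 5.72 FPKM in unedited cells and at 6.20 in both clones (clone SD 0.0064, n = 2). This was the steadiest of the 10 genes between clones. The log2 ratio of FPKM between them was 0.0021, closer than the counting SE of up to 0.17. PPFIA1, which encodes the scaffold liprin-alpha-1, lay at 18.0 FPKM in unedited cells, 17.4 in clone 114 and 27.5 in clone 174. Clone 174 alone was high, at 1.53 times the control, and clone 114 was level with it at 0.970. The PPFIA1 change in clone 174 was 0.59 on the log2(FPKM + 1) scale, matched or exceeded upwards by 5.76% of tested genes. Its log2 ratio of FPKM was 0.61 with a counting SE of 0.054. Within libraries, PPFIA1 was 3.15 times PPFIBP1 in unedited cells, 2.81 times in clone 114 and 4.43 times in clone 174.

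KIF21A and ERC1 had nearly the same pattern. KIF21A, the kinesin that curbs microtubule growth at the cortex, lay at 6.88 FPKM in unedited cells, 7.38 in clone 114 and 9.71 in clone 174. ERC1, the gene of the ELKS scaffold, lay at 7.80 FPKM in unedited cells, 8.22 in clone 114 and 10.8 in clone 174. For both genes clone 114 was near the control, and clone 174 was higher, at 1.41 times the control for KIF21A and 1.38 times for ERC1. The log2 ratios of FPKM in clone 174 were 0.50 and 0.46, with a counting SE of 0.10 for each. Relative to KANK1, KIF21A was at 1.53 in unedited cells, 2.04 in clone 114 and 2.83 in clone 174. The ERC1 to KANK1 ratio went from 1.74 to 2.27 and 3.13 in the same order.

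The LL5 genes PHLDB1 and PHLDB2, whose products bind phosphoinositides at the membrane and recruit CLASPs, were both highest in clone 114. PHLDB1 lay at 4.58 FPKM in unedited cells, 6.91 in clone 114 and 5.87 in clone 174. Both clones were above the control, at 1.51 and 1.28 times its level (limma log2 difference 0.40, SE 0.37, adjusted p = 1.00). PHLDB2 lay at 3.85 FPKM in unedited cells, 6.47 in clone 114 and 4.33 in clone 174, that is, 1.68 and 1.12 times the control. Clone 114 was high and clone 174 nearer the control, with log2 ratios of FPKM of 0.75 and 0.17. The 2 genes together summed to 8.44 FPKM in unedited cells, 13.4 in clone 114 and 10.2 in clone 174. PHLDB2 was 0.840 of PHLDB1 in unedited cells, 0.936 in clone 114 and 0.737 in clone 174, so their balance did not move one way in both clones.

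The CLASP genes encode the microtubule-binding proteins that the assembly holds at the cortex. CLASP1 lay at 8.73 FPKM in unedited cells, 9.99 in clone 114 and 11.1 in clone 174, with both clones above the control (1.14 and 1.27 times). CLASP2 lay at 11.5 FPKM in unedited cells, 11.7 in clone 114 and 10.5 in clone 174, and its clones lay on either side of the control. CLASP2 exceeded CLASP1 by 1.31 times in the control and by 1.17 times in clone 114, and was 0.949 of it in clone 174. Their sum was 20.2 FPKM in unedited cells and 21.7 in each clone.

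**Figure D3:**
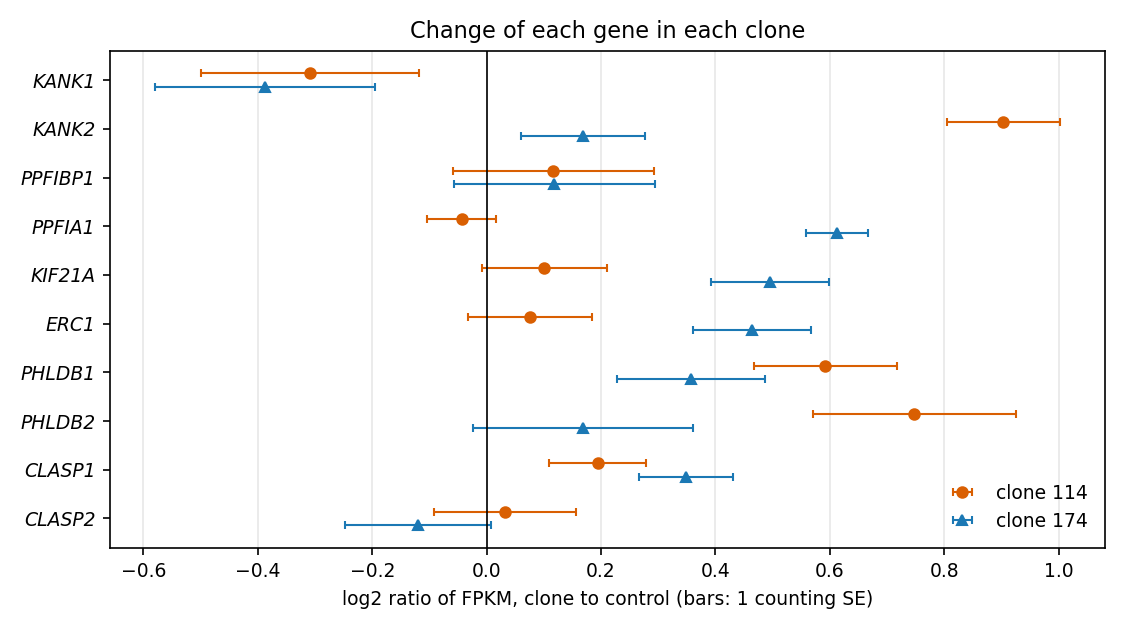
Log2 ratio of FPKM between each clone and the control for the 10 genes, with bars of 1 counting SE from the lowest fragment estimate; circles are clone 114 and triangles clone 174. KANK2 (0.90) and PHLDB2 (0.75) are farthest right in clone 114 and PPFIA1 (0.61) in clone 174, while KANK1 is left of 0 in both.

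Tested together with limma on log2(FPKM + 1), 0 of the 10 genes passed an adjusted p of 0.05, against 0.0795% of all 12577 tested genes. At an unadjusted p under 0.05 the count was also 0, against 1.73% of all genes. Their unadjusted limma p ran from 0.238 for KANK2 to 0.907 for CLASP2, with SEs of 0.34 to 0.40 on the log2 scale. By direction alone, 7 of 10 were higher in both clones (KANK2, PPFIBP1, KIF21A, ERC1, PHLDB1, PHLDB2 and CLASP1), where 26.1% of all tested genes were. KANK1 alone was lower in both, where 31.8% of all tested genes were, and PPFIA1 and CLASP2 were mixed. Both clones are set against the same control library, so these directions are not independent.

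The median log2(FPKM + 1) change of the 10 genes was 0.26 for both clones, 0.094 for clone 114 and 0.23 for clone 174, against -0.020, -0.0058 and -0.047 over all tested genes. None of the 10 reached a 2-fold change on that scale in clone 114, where 3.15% of all tested genes did, or in clone 174, where 3.55% did. The same held between the clones, where 5.77% of all tested genes differed by 2-fold or more and 0 of the 10 did. Scaling all libraries to the same sum moved the median of all tested genes from -0.020 to 0.11 and KANK2 in clone 114 to 1.004, which is past 2-fold. Under that scaling the both-clone values were 0.38 for CLASP1, 0.38 for ERC1, 0.23 for PPFIBP1 and 0.098 for CLASP2, which is thereby turned from -0.041.

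Clone 114 and clone 174 differed in which genes of the assembly stood high. KANK2, PHLDB2 and PHLDB1 were higher in clone 114, by 0.68, 0.49 and 0.20 on the log2(FPKM + 1) scale. PPFIA1, KIF21A and ERC1 were higher in clone 174, by 0.63, 0.35 and 0.35. A difference as large as that of PPFIA1 in the same direction was reached by 6.91% of tested genes, and one as large as that of KANK2 by 9.39%. With 1 library per clone there is no replicate for this comparison and no test.

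Genes lying next to the members on their chromosomes also differed between libraries. Each of the 10 genes was set beside the tested genes nearest to it, up to 10 on each side, in RefSeq gene order. CLASP1, on chromosome 2, had a log2(FPKM + 1) change of 0.32 in clone 174. Its neighbours had a median of 0.31 there, and 20 of 20 were higher than in the control. In clone 114 CLASP1 was at 0.18 and its neighbours at a median of -0.024, with 8 of 20 higher. On chromosome 12 in clone 174, KIF21A was at 0.44 and its neighbours at a median of 0.33, with 19 of 20 higher. ERC1 was at 0.42 and its neighbours at 0.24, with 13 of 15 higher. In clone 114 KIF21A was at 0.089 against a neighbour median of 0.091, and ERC1 at 0.067 against 0.18. PPFIBP1, on the same chromosome, was lower than most of its surroundings in clone 174, at 0.10 against 0.37. CLASP2, on chromosome 3, lay at -0.11 in clone 174 and its neighbours at -0.20. The part of these surroundings in the members' values was not tested.

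The remaining members were set beside their neighbours in the same way. PPFIA1, on chromosome 11, was at 0.59 in clone 174 with a neighbour median of 0.0087, and 0 of 20 neighbours were as far up. CTTN, the cortactin gene next to it, was at 0.49. KANK2, on chromosome 19, was at 0.83 in clone 114 with a neighbour median of 0.25, and 2 of 20 neighbours, SLC44A2 and EPOR, were as far up. DOCK6, the gene beside KANK2, was at 0.73. In clone 174 KANK2 was at 0.15 with a neighbour median of 0.076, and 6 of 20 were as far up. PHLDB2 was at 0.62 in clone 114 with a neighbour median of 0.12, and 1 of 20 was as far up. Its value in clone 174 was 0.14 with a neighbour median of -0.12, and again 1 of 20 was as far up. PHLDB1 was at 0.50 in clone 114 with a neighbour median of 0.13 and 3 of 20 as far up. For clone 174 it was at 0.30 with a median of 0.25 and 8 of 20 as far up. KANK1, near the end of chromosome 9, had 11 tested neighbours within reach, with medians of 0.26 in clone 114 and -0.047 in clone 174, against its own -0.25 and -0.31. Of those 11, 2 were as far down in clone 114 and 4 in clone 174. DOCK8, the tested gene on 1 side of KANK1, was at 0.85 in clone 114 and 0.68 in clone 174. DMRT3, on its other side, was at -0.12 and 0.39.

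**Figure D4:**
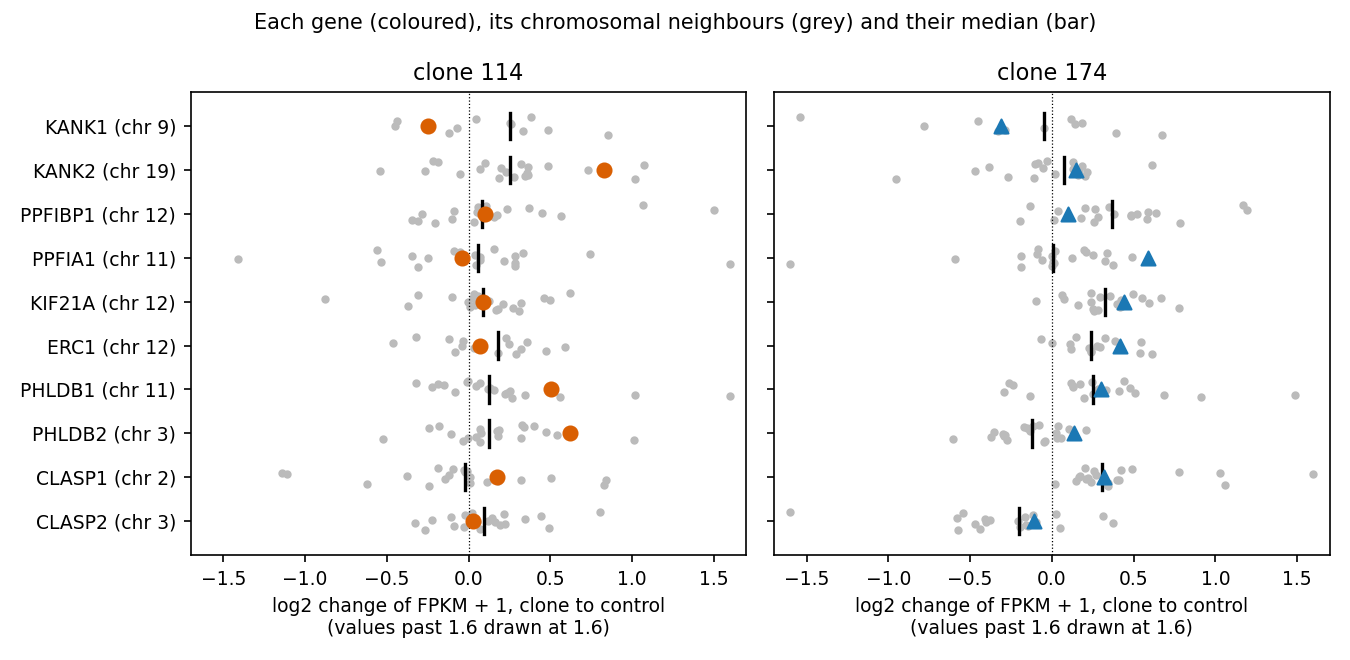
Log2 change of FPKM + 1 against the control for each of the 10 genes (coloured), for up to 20 tested genes around it on its chromosome (grey points) and for their median (black bars), in clone 114 on the left and clone 174 on the right. CLASP1 sits on its neighbours' median in clone 174, at 0.32 against 0.31, while PPFIA1 at 0.59 lies beyond all 20 of its own.

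Subtracting the median change of the tested genes on the same chromosome, a step chosen after the data were seen, left 6 of 10 members higher in both clones and 1, KANK1, lower in both. Over all tested genes with a chromosome, 30.5% were then higher in both and 30.5% lower in both. KANK1 had a both-clone log2 value of -0.30, KANK2 of 0.48 and PHLDB2 of 0.41 by this measure. CLASP1 went to 0.12, ERC1 to 0.11 and KIF21A to 0.13, and PPFIBP1 turned to -0.032.

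A wider set of 69 related genes in 8 lists was examined next, of which 62 reached the level tested. By limma 0 passed an adjusted p of 0.05 and 0 an unadjusted p of 0.05; 17 were higher and 21 lower in both clones, and their median log2 change was -0.037. Over all tested genes 0.0795% were called, 26.1% were higher and 31.8% lower in both clones, so these directions were close to the background. Among the other paralogs of the assembly's subunits, 4 of 7 were tested and 2 were lower in both clones. PPFIA3, another liprin-alpha gene, lay at 4.56 FPKM in unedited cells, 2.46 in clone 114 and 5.60 in clone 174, so it was low in clone 114 only. PHLDB3 lay at 3.72, 3.35 and 2.85 FPKM in the same order, PPFIBP2 at 1.41, 1.24 and 1.22 and PPFIA4 at 1.02, 1.45 and 0.925. Paralogs at 1.14 FPKM or below in all libraries, and so not tested, were ERC2, KIF21B and PPFIA2. PPFIA2 lay at 0.702 FPKM in unedited cells, 0.0112 in clone 114 and 0.759 in clone 174. ERC2 was at 0.559, 0.645 and 0.606 FPKM and KIF21B at 0.840, 1.14 and 0.660 in the same order.

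Genes of microtubule plus ends and their cortical partners were all tested, and in both clones 8 of 14 were higher and 4 lower, with a median log2 change of 0.095, where 26.1% and 31.8% of all tested genes were. MAPRE3, an end-binding protein gene, lay at 11.4 FPKM in unedited cells and 15.2 in each clone. DST, a spectraplakin gene that crosslinks microtubules and actin, lay at 6.72 FPKM in unedited cells, 8.77 in clone 114 and 9.02 in clone 174. SLAIN1, which encodes a partner of the microtubule polymerase CKAP5, was at 22.0, 24.8 and 31.5 FPKM in that order. MAPRE2 was the largest on the lower side, at 32.0, 22.1 and 28.4 FPKM. None of the 14 was called by limma, against 0.0795% of all tested genes, and the direction of MAPRE3, DST and SLAIN1 was the same in both clones.

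Genes of talin and its adhesion partners were lower in both clones for 2 of 5 tested and higher for 0 (median log2 change -0.24). Of all tested genes 31.8% were lower and 26.1% higher in both. TLN1, the gene of the main KANK-binding talin, lay at 28.6 FPKM in unedited cells, 34.1 in clone 114 and 24.8 in clone 174. VCL, the vinculin gene, was at 50.3, 51.0 and 33.5 FPKM in that order, low in clone 174 only. ILK, an adhesion pseudokinase gene, was at 44.7, 44.7 and 32.0 FPKM; it counts as lower in both clones, but its log2 difference in clone 114 was -0.00036. FERMT2, the kindlin-2 gene, was at 39.4, 29.7 and 32.9 FPKM, with both clones below the control.

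Among genes of other KANK-binding proteins, 2 of 17 were higher in both clones and 4 were lower, with a median log2 change of -0.090. Of all tested genes 26.1% were higher and 31.8% lower in both, and 0.0795% were called by limma. AIFM1, whose product binds KANK2, lay at 84.1 FPKM in unedited cells, 54.6 in clone 114 and 63.9 in clone 174. BAIAP2, the gene of the actin regulator IRSp53, was at 13.5, 8.71 and 10.4 FPKM, and DAAM1, a formin gene, at 6.06, 4.99 and 3.85. SFN, a 14-3-3 gene, was at 7.79 FPKM in unedited cells, 3.39 in clone 114 and 9.05 in clone 174. SFN is the 1 tested gene of these 8 lists past 2-fold on log2(FPKM + 1) in a clone. None of these passed the limma test (adjusted p = 1.00).

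By Euclidean distance of log2(FPKM + 1) over the 3 libraries, the genes most like KANK1 were DLL3 (distance 0.069), STAC (0.073) and SLC35E4 (0.081), and 51 tested genes lay within 0.2. The genes most like KANK2 were IQGAP3 (0.11), ARMCX3 (0.12) and SCHIP1 (0.16), and 9 lay within 0.2. Over 3 libraries such likeness describes the levels only.

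The libraries were of like depth, estimated at 16300000 to 17000000 fragments, and 12330 to 12573 genes reached 1 FPKM in each. Of 7 genes set as marks of a HEK293-type line, 5 were well expressed, VIM, KRT8, KRT18, NEFL and LIN28B. The remaining marks, NEFM and PAX2, stayed at or below 1.33 FPKM. VIM, the vimentin gene, lay at 523 FPKM in unedited cells, 445 in clone 114 and 201 in clone 174. The keratin genes KRT8 (273, 208 and 364 FPKM in that order) and KRT18 (134, 94.1 and 152) were lowest in clone 114 and highest in clone 174. NEFL was at 54.6, 26.0 and 41.9 FPKM and LIN28B at 26.0, 25.8 and 22.0. The summed level of 4 blood markers was at most 0.169 FPKM in any library, that of 4 endothelial markers at most 0.420, and that of 3 hepatocyte markers at most 0.420, with PTPRC, PECAM1 and TTR at 0 throughout. Of 5 fibroblast markers COL1A2 was at 0 throughout, and the sum ran from 2.97 FPKM in unedited cells to 5.52 in clone 174, mostly COL1A1.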

How the data were processed

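RNA of 3 HEK293 libraries was measured. Per the submitters' processing notes the tools were cutadapt 2.10, HISAT2 2.2.1, and also Cuffdiff 2.2.1, with hg19. Their settings are not given in any source used here. The authors deposited 1 FPKM table per library; these are not counts, so no count model was used. They also deposited log2 ratios of each clone to the control, which cover 6 of the 10 members and equal the log2 ratio of the deposited FPKM within 1e-09; they were not used further. Of 26237 rows, 28 with a date for a symbol were left out.

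The 12577 genes whose mean reached 1 FPKM entered limma 3.58.1 as log2(FPKM + 1) values (R 4.3.3; eBayes with a trend, Benjamini-Hochberg at 0.05), a step tested on simulated data. Its residual degrees of freedom were 1, from the spread of the clones, beside 8.80 prior ones, and the lone control is taken to vary as a clone does. Separate cultures are not stated, so p-values cover only the spread of these libraries. The pseudocount understates changes of low genes. Depth was estimated from the FPKM of 1 fragment in low genes with 1 transcript of at least 1500 bases, assuming 200-base fragments; counting SEs cover counting error only. The guide was matched to GENCODE transcripts with edlib 1.3.9.post1; their build, GRCh38, differs from that of the files. RefSeq GRCh38.p14 gave chromosomes and gene order (11657 tested genes). Members, lists and tests were chosen with earlier results of these data known. Named genes were the 10 members, KANK3, KANK4, up to 4 tested genes per related list with the largest mean change, and the 3 nearest patterns to KANK1 and KANK2. CTTN, SLC44A2, EPOR, DOCK6, DOCK8, DMRT3, ERC2, KIF21B and PPFIA2 were named after their values were seen. Results for 1 of the related lists are not reported here.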

Additional observations from a re-analysis of the deposited data

How the results depend on the processing

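Of 78 member values under up to 8 alternative settings, 76 kept their direction; 0 passed limma's test where one was made (lowest adjusted p = 1.00). KANK1 and PHLDB2 have no value at a mean of at least 5 FPKM, which both miss. The exceptions are CLASP2, at 0.098 with FPKM scaled to the same sum, and PPFIBP1, at -0.032 with chromosome medians subtracted. KANK1 ran from -0.34 to -0.16 and KANK2 from 0.47 to 0.62 over those settings. Leaving out either clone gave -0.31 to -0.25 for KANK1, 0.15 to 0.83 for KANK2, -0.041 to 0.59 for PPFIA1 and -0.11 to 0.029 for CLASP2, values with no test. The KANK2 to KANK1 log2 ratio change ran from 0.56 to 1.21 without either clone and was 0.77 with 1 FPKM added. Calls over all genes, 10 as reported, were 3 with a pseudocount of 0.1 FPKM, 0 with no filter on low values (486 at an unadjusted limma p under 0.05), 6 scaled to the same sum and 15 under the 5 FPKM filter; the cause was not tested. Members past 2-fold in clone 114 went from 0 to 1 (KANK2) scaled to the same sum. Members higher in both clones numbered 7 or 8 over 4 scaling and pseudocount settings chosen after the data were seen, where 26.1% to 41.4% of all genes were. No paired analysis was possible because the groups share fewer than 2 replicate numbers. Depth limits KANK3 and KANK4, at 42 fragments or fewer in each library.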

Other observations

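Of 6 genes of exocytosis at the cortex, 0 were higher and 1 was lower in both clones, with 0 called by limma. The shares over all tested genes were 26.1% higher, 31.8% lower and 0.0795% called. EXOC4, an exocyst gene, lay at 18.6 FPKM in unedited cells, 32.8 in clone 114 and 18.0 in clone 174, so clone 114 alone was high. RAB6A, whose product marks secretory carriers that ELKS captures, was at 42.8, 41.6 and 54.1 FPKM in the same order. RAB6B was at 5.44, 5.90 and 3.17 FPKM, low in clone 174, and MICAL3 was the gene lower in both clones, at 9.11, 7.62 and 7.94.

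Genes listed for liprin-alpha binding divided evenly by direction, with 4 of 8 higher and 4 lower in both clones and 0 called by limma. Whether each product, that of MPP1 among them, binds liprin-alpha directly was not checked here. The background over every tested gene was 26.1% for the upward direction and 31.8% for the downward one. Limma called 0.0795% of that background, so 0 calls among 8 do not set this list apart. PTPRF, a receptor phosphatase gene, lay at 40.7 FPKM in unedited cells, 31.1 in clone 114 and 26.0 in clone 174, and MPP1 at 41.2, 29.6 and 28.9 in the same order. On the higher side GIT2 lay at 7.71, 10.8 and 10.7 FPKM and PTPRS at 7.19, 10.4 and 9.16.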
